A study of Mus musculus with 12 samples.

Results

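The enzymes that make and spend serine, glycine and methionine, the enzymes and transporters that supply other amino acids, and the stress genes tied to the transcription factor Atf4 were followed in embryonic mouse pancreas lacking β-catenin. The list holds 50 genes, and every probe set whose only gene symbol was one of them was taken: 90 probe sets of 47 genes, out of 45037 probe sets and 18193 genes. Mat2a, Pycr1 and Amt had no such probe set. Of the 47 genes 21 had 1 probe set and 26 had several.

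Each of 12 pancreata was hybridized to its own array. The KO embryos were Pdx1Cre/+; beta-catenin flox/flox, carrying Cre driven by the pancreatic Pdx1 promoter and 2 floxed β-catenin alleles for it to delete, and the WT embryos were controls from the same intercross of Pdx1Cre/+; beta-catenin flox/+ mice. There were 4 KO and 2 WT pancreata at embryonic day (E) 14.5, and 4 KO and 2 WT pancreata at E16.5. No treatment was given, and the design text writes the earlier day as E14.6 where the sample names have 14.5. Sex, strain beyond the intercross, and whether a WT embryo carried Cre are not given in the sources used here. According to the study, Cre activity was probably mosaic, and acini that remained still contained β-catenin. The arrays measured whole organs, so fewer cells of a type and less RNA per cell cannot be told apart.

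The deposited value of a probe set is a ratio to the mean of the WT pancreata of the same day, so 1 is the WT mean and neither transcript abundance nor its course between the days can be read. KO and WT were compared on log2 ratios with limma, and p values were adjusted over all 45037 probe sets, with 0.05 as the limit. Values at E14.5 are given in the order KO_540C, KO_540G, KO_615A and KO_615B, then WT_522B and WT_522C. Values at E16.5 are in the order KO_541J, KO_541L, KO_591C and KO_591D, then WT_622A and WT_628G. On the 3 probe sets of Ctnnb1, the β-catenin gene, mean KO ratios ran from 0.841 to 1.21 at E14.5 and from 0.678 to 0.961 at E16.5, and none passed the test. Whether any of them lies in the deleted stretch is not known here.

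Serine is made from a glycolytic intermediate by Phgdh, Psat1 and Psph in turn, and serine hydroxymethyltransferases then move a carbon from serine to folate, leaving glycine. The methionine cycle makes S-adenosylmethionine, spends its methyl group, for instance on glycine through Gnmt, and recycles or diverts the homocysteine that results, the diversion to cysteine running through Cbs and Cth. The acinar cells of the exocrine pancreas secrete digestive enzymes, take up amino acids at a high rate and hold an extensive endoplasmic reticulum, and Atf4 is a factor that raises amino acid synthesis and uptake genes when amino acids are short or protein folding is impaired.

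At E16.5 11 probe sets of 10 genes fell in KO pancreata and none rose. The genes were the folate enzyme Aldh1l1, the methyl group enzymes Gnmt, Ahcy and Mat1a, the cysteine-forming enzymes Cbs and Cth, the proline and ornithine enzyme Aldh18a1, the arginine-forming Asl, and Slc7a5 and Slc3a2, whose products pair as a transporter of large neutral amino acids. Called probe sets made up 12.2% of the members at E16.5 on the lower side, where 1.82% of all probe sets were called, and 0% on the higher side, where 0.802% were. The members were chosen with earlier results of these data known. The shares here and below therefore describe the list and do not test it against all probe sets. At E14.5 none of the 90 passed, where 0.0111% of all probe sets did in either direction. Across the 47 genes, 1 probe set each, the median log2 fold change was -0.33 at E16.5 (35 genes lower and 12 higher) and -0.06 at E14.5 (31 lower and 16 higher), beside 0.03 and 0.01 over all genes.

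**Figure D1:**
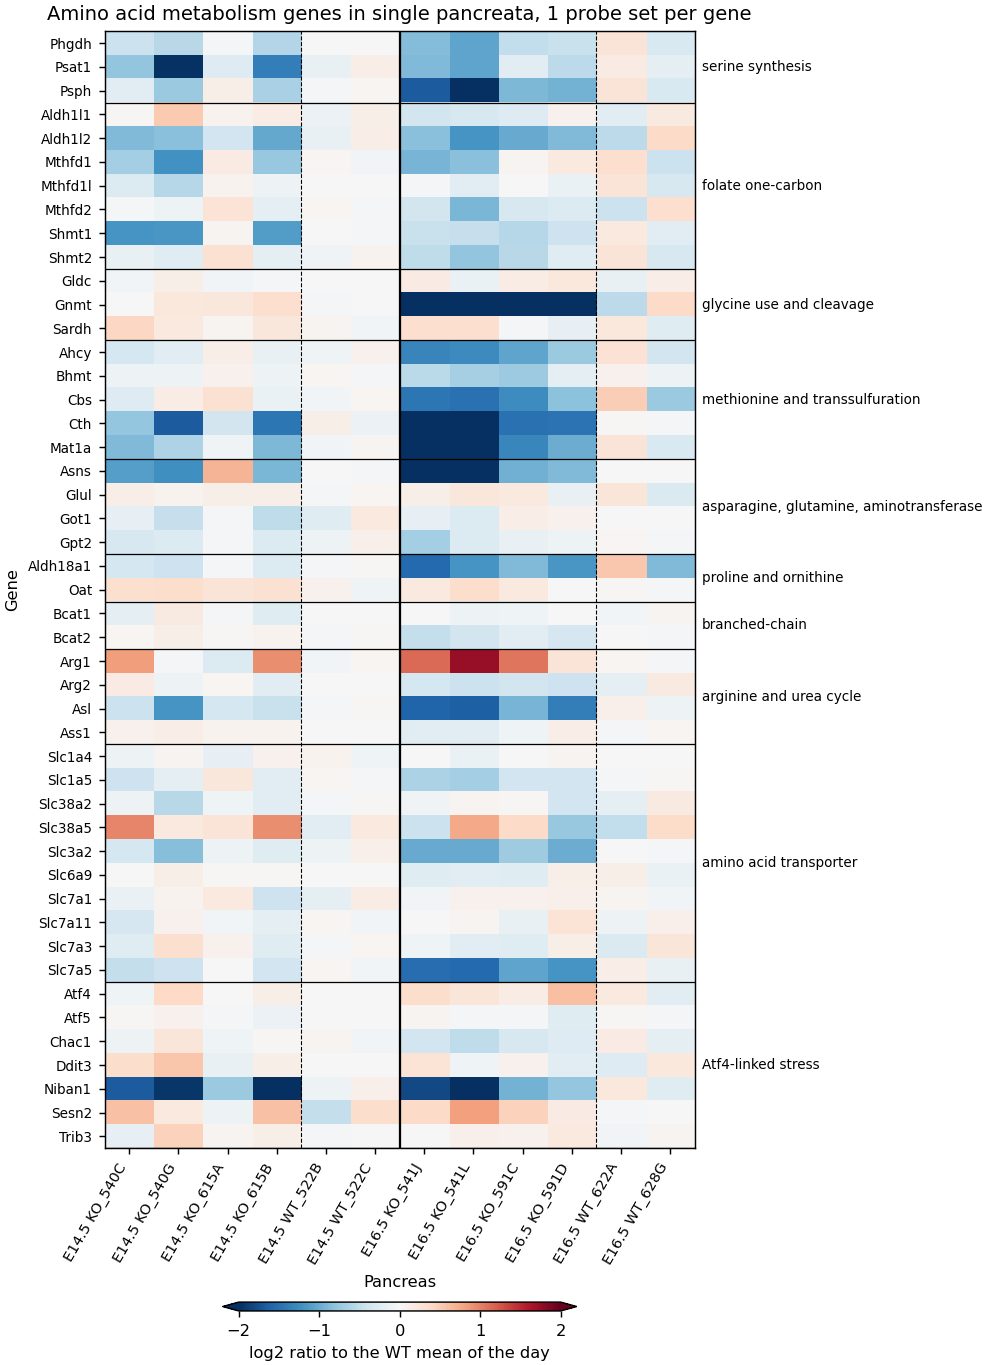
Heat map of the log2 ratio to the WT mean of the day (colour, limited to -2 and 2) for 47 genes, 1 probe set each chosen by its name alone, in 12 pancreata, KO left of WT within each day. The methionine and transsulfuration genes are blue in all 4 E16.5 KO columns. The E14.5 column of KO_615A is paler than its 3 neighbours for Phgdh, Psat1, Psph, Shmt1, Mthfd1, Mthfd1l and Aldh1l2. It is not the palest for Shmt2, Mthfd2 and Aldh1l1.

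The counts without adjustment for multiple testing ran the same way. At an unadjusted p under 0.05, 34 of the 90 probe sets (37.8%) were lower at E16.5 and 3 (3.33%) were higher, where 8.16% and 8.48% of all probe sets were. At E14.5 14 (15.6%) were lower and 3 (3.33%) higher, where 4.52% and 2.34% of all probe sets were. All 4 KO pancreata lay below both WT pancreata on 35 probe sets at E16.5 (38.9%, all probe sets 11.1%) and on 17 at E14.5 (18.9%, all probe sets 8.06%). All 4 lay above both WT pancreata on 7 at E16.5 (7.78%, all probe sets 14.5%) and on 10 at E14.5 (11.1%, all probe sets 8.17%). Probe sets of 1 gene are not independent, and the 34 lower ones at E16.5 came from 23 genes and the 14 at E14.5 from 8.

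In the methionine cycle and the path to cysteine 4 of 6 probe sets fell at E16.5 (all probe sets 1.82%), and those of Bhmt and the second of Cbs did not pass. All 4 KO pancreata lay below both WT pancreata on each of the 6 (all probe sets 11.1%). The median log2 fold change of the 5 genes was -1.13 at E16.5 and -0.14 at E14.5.

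Mat1a makes S-adenosylmethionine from methionine. At E16.5 its ratios were 0.181, 0.158, 0.403 and 0.500 in KO pancreata, against 1.19 and 0.809 in WT pancreata (log2 fold change -1.83, SE 0.42, limma adjusted p = 0.0444). At E14.5 they were 0.541, 0.651, 0.957 and 0.535 in KO pancreata, against 0.962 and 1.04 in WT pancreata, and did not pass (adjusted p = 0.858). KO_615A was the pancreas near the WT level at the earlier day. The E16.5 call of Mat1a was lost when any 1 of KO_541J, KO_541L, WT_622A, WT_628G, KO_540C, KO_540G, KO_615B, WT_522B and WT_522C was left out (adjusted p = 0.0525 to 0.243). Ahcy hydrolyses the product left when S-adenosylmethionine has given up its methyl group. Its ratios at E16.5 were 0.402, 0.414, 0.479 and 0.600 in KO pancreata, against 1.22 and 0.776 in WT pancreata (log2 fold change -1.06, SE 0.21, limma adjusted p = 0.0235), with no overlap. It did not pass without WT_622A (log2 fold change -0.73, adjusted p = 0.179), KO_541J (0.0644) or KO_541L (0.0626). Bhmt, which rebuilds methionine from homocysteine with betaine, was at 0.691, 0.633, 0.607 and 0.878 in E16.5 KO pancreata, against 1.06 and 0.936 in WT pancreata, with an adjusted p of 0.0751. It passed with array weights (0.0222) and without KO_591D (0.00772).

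Cbs and Cth divert homocysteine to cysteine. On probe set 1423844_s_at Cbs was at 0.125, 0.0809, 0.186 and 0.241 in E16.5 KO pancreata, against 1.33 and 0.673 in WT pancreata (log2 fold change -2.70, SE 0.40, limma adjusted p = 0.00659). The second Cbs probe set, 1425623_a_at, had a smaller difference that did not pass, with 0.367, 0.354, 0.417 and 0.567 in KO pancreata, against 1.40 and 0.600 in WT pancreata (log2 fold change -1.13, adjusted p = 0.0649). It was at -0.52 without WT_622A and passed at -1.74 without WT_628G (0.0107), with array weights (0.0260) and without KO_591D (0.0270). WT_622A was the higher of the WT pair on both probe sets, and without it the first did not pass (log2 fold change -2.21, adjusted p = 0.0645). Cth was at 0.210, 0.130, 0.355 and 0.361 in E16.5 KO pancreata, against 1.02 and 0.977 in WT pancreata (log2 fold change -2.04, SE 0.42, limma adjusted p = 0.0291). At E14.5 Cth was at 0.587, 0.314, 0.773 and 0.368 in KO pancreata, against 1.08 and 0.921 in WT pancreata, all 4 KO values below both WT values, with an adjusted p of 0.674. The E16.5 call of Cth was lost without KO_541J (0.0747), WT_622A (0.136), WT_628G (0.114), WT_522B or WT_522C (0.0508 each).

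Gnmt methylates glycine and so disposes of surplus methyl groups. Its ratios at E16.5 were 0.108, 0.0569, 0.157 and 0.208 in KO pancreata, against 0.699 and 1.30 in WT pancreata. The log2 fold change was -3.0 (SE 0.40, limma adjusted p = 0.00408), the lowest among the 90 probe sets at that day. At E14.5 the ratios were 0.992, 1.16, 1.17 and 1.26 in KO pancreata, against 0.986 and 1.01 in WT pancreata, so KO and WT overlapped there. Sardh, which turns the methylated glycine back into glycine, and Gldc, of the glycine cleavage system, had no such shift. On probe set 1448426_at Sardh was at 1.56, 1.22, 1.14 and 1.20 in E16.5 KO pancreata, against 1.03 and 0.965 in WT pancreata (adjusted p = 0.300). On probe set 1416662_at it was at 1.26, 1.26, 0.973 and 0.894 in KO pancreata, against 1.16 and 0.844 in WT pancreata, and overlapped. The Gldc log2 fold change was 0.11 (SE 0.12, adjusted p = 0.749).

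**Figure D2:**
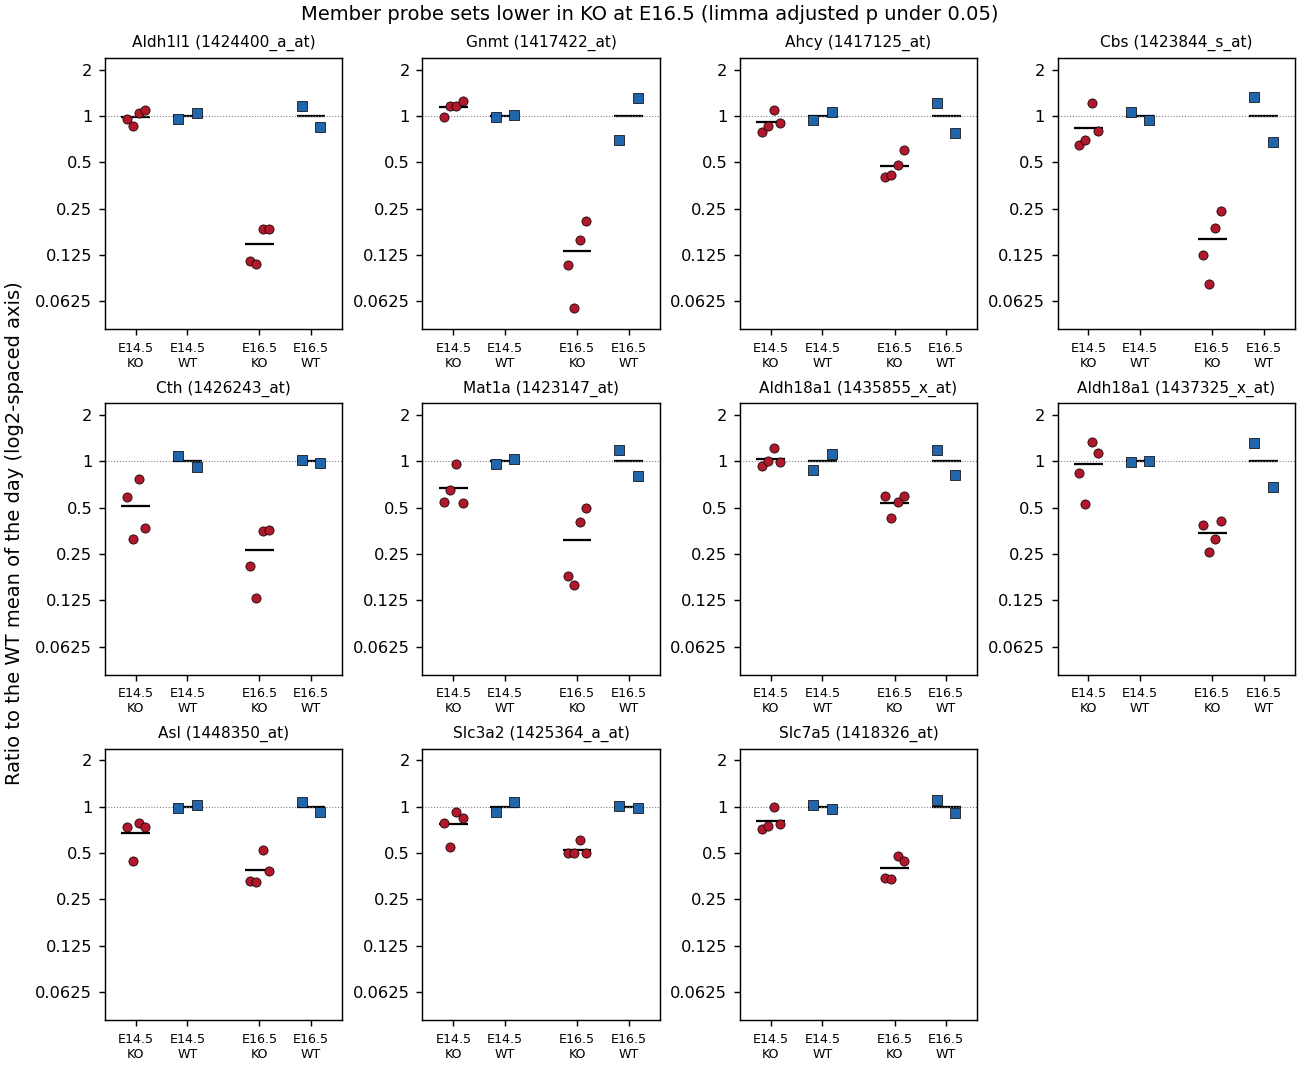
Ratios to the WT mean of the day on a log2-spaced axis for the 11 probe sets that fell in KO pancreata at E16.5, with 1 point per pancreas (circles KO, squares WT) and a bar at the group mean. On all 11 the 4 E16.5 KO pancreata lie below both WT pancreata, and for Aldh1l1 and Gnmt the E14.5 KO points lie around 1.

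Aldh1l1 and Gnmt were the members whose KO effect differed between the days. Aldh1l1 oxidizes formyltetrahydrofolate and so removes carbon units from the folate pool. On probe set 1424400_a_at it was at 0.115, 0.109, 0.184 and 0.185 in E16.5 KO pancreata, against 1.16 and 0.845 in WT pancreata (log2 fold change -2.78, SE 0.23, limma adjusted p = 0.000157). At E14.5 it was at 0.955, 0.855, 1.05 and 1.09 in KO pancreata, against 0.952 and 1.05 in WT pancreata, around the WT mean. The E16.5 effect minus the E14.5 effect was -2.76 for Aldh1l1 (SE 0.32, limma adjusted p = 0.00548) and -3.20 for Gnmt (SE 0.57, limma adjusted p = 0.0447). These were 2 of 90 probe sets (2.22%), where 0.273% of all probe sets had a lower effect at E16.5 by this test, and at an unadjusted p under 0.05 the members counted 14 lower (15.6%, all probe sets 5.04%) and 0 higher (all probe sets 5.32%). The Gnmt difference did not pass under 12 of 19 other settings, among them 9 of the 12 in which 1 pancreas was left out. For Aldh1l1 the difference did not pass under 4 of 19. These were the trended robust variance (limma adjusted p = 0.141), quantile normalization (-1.73, limma adjusted p = 0.140), and leaving out WT_522B (-2.69) or WT_522C (-2.83), which leaves a single E14.5 WT pancreas.

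The second Aldh1l1 probe set did not show the change. On 1424401_at the gene was at 0.773, 0.799, 0.837 and 1.06 in E16.5 KO pancreata, against 0.867 and 1.13 in WT pancreata (log2 fold change -0.21, adjusted p = 0.645). Which transcripts each of the probe sets reads was not established.

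The rest of the folate set was lower without passing. All 17 probe sets of the 7 folate genes had negative log2 fold changes at E16.5 and 16 had at E14.5, with gene medians of -0.42 and -0.22. Some were near 0, such as -0.03 for Shmt1 on 1422198_a_at and -0.06 for Mthfd1l at E16.5. All 4 KO pancreata lay below both WT pancreata on 4 of the 17 at E16.5 (23.5%, all probe sets 11.1%). At E14.5 they did on 1 (5.88%, all probe sets 8.06%). Shmt1 and Shmt2 supplied 4 probe sets each and Mthfd1 3, so the 17 are not independent readings. The mitochondrial formyltetrahydrofolate dehydrogenase Aldh1l2 was at 0.563, 0.443, 0.497 and 0.545 in E16.5 KO pancreata, against 0.694 and 1.31 in WT pancreata (log2 fold change -0.90, adjusted p = 0.0656). It rested on the WT pair, being -0.44 without WT_628G and -1.36 without WT_622A, where it passed (limma adjusted p = 0.0199). At E14.5 it was at 0.541, 0.561, 0.763 and 0.491 in KO pancreata, against 0.901 and 1.10 in WT pancreata (log2 fold change -0.78, adjusted p = 0.556). KO and WT did not overlap at either day. Shmt2, the mitochondrial serine hydroxymethyltransferase, had log2 fold changes of -0.86 to -0.27 on 4 probe sets at E16.5, and Mthfd2, the mitochondrial enzyme that oxidizes the folate-bound carbon, -0.71 and -0.42.

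Shmt1, the cytosolic serine hydroxymethyltransferase, split the E14.5 KO pancreata. On probe set 1425177_at the ratios were 0.443, 0.448, 1.04 and 0.463 in E14.5 KO pancreata, against 1.01 and 0.986 in WT pancreata (log2 fold change -0.85, SE 0.29, adjusted p = 0.607). On 1425179_at they were 0.438, 0.363, 1.02 and 0.406 in KO pancreata, against 1.05 and 0.952 in WT pancreata, and on 1425178_s_at 0.531, 0.425, 1.12 and 0.464 in KO pancreata, against 1.09 and 0.911 in WT pancreata. On these 3 probe sets KO_615A was at the WT level and the other 3 KO pancreata were between 0.363 and 0.531. Without KO_615A probe set 1425177_at passed at E14.5 (log2 fold change -1.15, limma adjusted p = 0.0241), the sole member probe set to do so at that day under any of the settings tried. The fourth probe set, 1422198_a_at, gave 0.933, 1.03, 1.05 and 0.879 in E14.5 KO pancreata, against 1.03 and 0.972 in WT pancreata, with no split. Mthfd1, which carries several steps of the cytosolic folate path, had KO_615A at 0.988 and the other 3 KO pancreata at 0.444 to 0.604 on probe set 1415916_a_at, against 0.965 and 1.03 in WT pancreata. On 1415917_at KO_615A was at 1.12 and the other 3 at 0.431 to 0.627, against 1.03 and 0.968 in WT pancreata. On 1436704_x_at the split was absent, with 0.816, 0.298, 0.941 and 0.769 in KO pancreata, against 1.13 and 0.866 in WT pancreata.

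**Figure D3:**
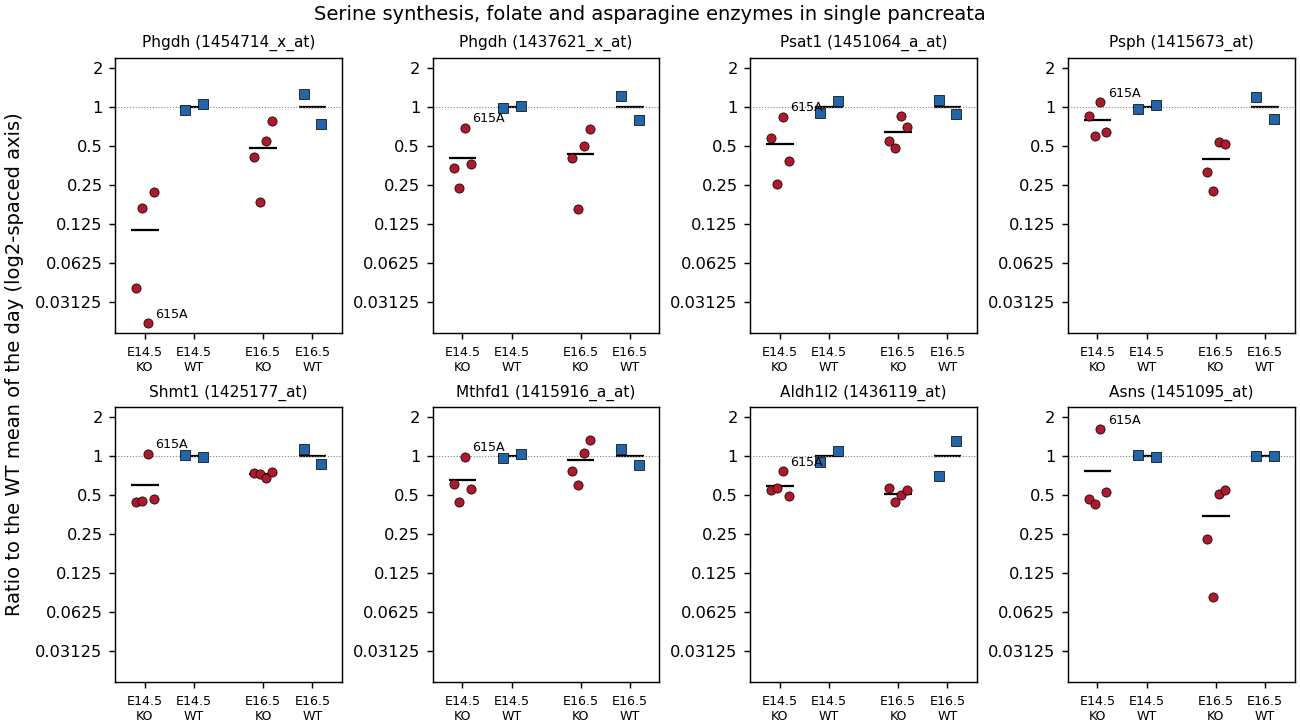
Ratios to the WT mean of the day on a log2-spaced axis for 8 probe sets of serine, folate and asparagine enzymes, with 1 point per pancreas (circles KO, squares WT), a bar at the group mean and KO_615A marked at E14.5. KO_615A is the highest E14.5 KO pancreas on every panel but Phgdh 1454714_x_at, where at 0.0214 it is the lowest.

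The serine synthesis enzymes were lower at both days and none passed. All 7 probe sets of the 3 genes had negative log2 fold changes at each day. On 5 of the 7 at each day all 4 KO pancreata lay below both WT pancreata. Over the whole array the share separated in this way was 8.06% on the earlier day and 11.1% on the later. Phgdh supplied 4 of the 7 and Psat1 2, so the 7 are not independent readings. The gene median was -0.40 at the earlier day and -0.69 at the later. Psph, which releases serine in the last step, was at 0.314, 0.222, 0.538 and 0.517 in E16.5 KO pancreata, against 1.19 and 0.806 in WT pancreata (log2 fold change -1.39, SE 0.34, limma adjusted p = 0.0568). It passed with array weights (0.0368), without KO_591D (0.0263) and without KO_591C (0.0492). Psat1, the aminotransferase of the middle step, was at 0.578, 0.253, 0.840 and 0.384 in E14.5 KO pancreata, against 0.902 and 1.10 in WT pancreata on probe set 1451064_a_at (log2 fold change -1.09, SE 0.38, adjusted p = 0.629). KO_540G and KO_615B were the lowest there and KO_615A the highest.

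Phgdh, the entry enzyme, is read by 4 probe sets whose names all end in _x_at, a class that may also bind related transcripts, and other probe sets that list Phgdh together with Gm8096 or Gm6756 were not counted. The Phgdh values are therefore uncertain. On 1454714_x_at the ratios were 0.0401, 0.165, 0.0214 and 0.219 in E14.5 KO pancreata, against 0.948 and 1.05 in WT pancreata (log2 fold change -3.74, SE 0.82, limma adjusted p = 0.405). This was the lowest fold change and the smallest p among the members at E14.5. The other 3 Phgdh probe sets gave log2 fold changes of -1.42 to -0.40 at E14.5, and all 4 gave -1.34 to -0.69 at E16.5. The probe sets ordered the pancreata differently, since KO_615A was the lowest KO pancreas on 1454714_x_at and the highest on the other 3.

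Asns, which makes asparagine, had wide spread among KO pancreata at both days. On probe set 1451095_at it was at 0.230, 0.0807, 0.512 and 0.542 in E16.5 KO pancreata, against 0.998 and 1.0 in WT pancreata (log2 fold change -1.90, SE 0.69, adjusted p = 0.180). At E14.5 it was at 0.468, 0.428, 1.61 and 0.529 in KO pancreata, against 1.01 and 0.989 in WT pancreata. KO_615A was thus above the WT level while the other 3 were between 0.428 and 0.529, and the second probe set had the same split, with 1.89 in KO_615A and 0.203 to 0.528 in the other 3 KO pancreata. Gpt2, a mitochondrial alanine aminotransferase, was at 0.587, 0.363, 0.707 and 0.569 in E14.5 KO pancreata, against 1.05 and 0.952 in WT pancreata on probe set 1438385_s_at (log2 fold change -0.88, adjusted p = 0.475). Its other 3 probe sets had log2 fold changes of -0.47 to -0.22 at E14.5. At E16.5 the ratios were 0.720, 0.660, 0.835 and 0.672 in KO pancreata, against 1.09 and 0.908 in WT pancreata on 1438385_s_at, and 0.623 to 0.937 in KO pancreata, against 1.03 and 0.974 in WT pancreata on 1434542_at. On 1439029_at they were 0.785, 0.889, 0.903 and 0.954 in KO pancreata, against 1.08 and 0.922 in WT pancreata, and on 1455007_s_at 0.584, 0.646, 0.857 and 0.690 in KO pancreata, against 1.21 and 0.793 in WT pancreata. The first and second of these separated KO from WT, the other two did not, and none passed. Got1, the cytosolic aspartate aminotransferase, differed by -0.27 on the log2 scale at E14.5 and by -0.06 at E16.5.

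Glul, which makes glutamine, was on the higher side. On probe set 1426236_a_at it was at 1.67, 2.03, 1.83 and 1.11 in E16.5 KO pancreata, against 1.01 and 0.994 in WT pancreata, the 4 KO values above both WT values, and did not pass (log2 fold change 0.69, adjusted p = 0.126). It passed with array weights (0.0329) and without KO_591D (log2 fold change 0.88, limma adjusted p = 0.0131). On 1426235_a_at it was at 1.08, 1.17, 1.14 and 0.899 in KO pancreata, against 1.18 and 0.818 in WT pancreata, inside the WT range. Arg1, which splits arginine to ornithine and urea, had the highest log2 fold change of the 90 at E16.5, 1.05 (SE 0.39, adjusted p = 0.186). Its ratios were 2.20, 3.36, 2.09 and 1.19 in E16.5 KO pancreata, against 1.03 and 0.970 in WT pancreata, with KO_591D the nearest to WT, and without KO_591D it passed (log2 fold change 1.32, limma adjusted p = 0.0457). Arg2, the mitochondrial arginase, was at 0.782, 0.744, 0.773 and 0.748 in E16.5 KO pancreata, against 0.874 and 1.13 in WT pancreata on 1418847_at (adjusted p = 0.137), and at 1.01, 0.901, 0.958 and 0.989 in KO pancreata, against 0.982 and 1.02 in WT pancreata on 1438841_s_at.

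Asl, which releases arginine from argininosuccinate, fell at E16.5. Its ratios were 0.329, 0.323, 0.524 and 0.385 in KO pancreata, against 1.07 and 0.930 in WT pancreata (log2 fold change -1.38, SE 0.24, limma adjusted p = 0.0138), and without WT_622A the adjusted p was 0.0912. At E14.5 they were 0.743, 0.442, 0.785 and 0.735 in KO pancreata, against 0.977 and 1.02 in WT pancreata, all 4 below both WT values, with an adjusted p of 0.677. Ass1, which makes the argininosuccinate, had a single probe set of its own, whose log2 fold change was 0.09 at the earlier day and -0.10 at the later.

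Aldh18a1 makes the intermediate from which proline and ornithine derive, and 2 of its 5 probe sets fell at E16.5. On 1435855_x_at the ratios were 0.592, 0.430, 0.541 and 0.595 in E16.5 KO pancreata, against 1.19 and 0.811 in WT pancreata (log2 fold change -0.88, SE 0.19, limma adjusted p = 0.0328). On 1437325_x_at they were 0.387, 0.257, 0.311 and 0.407 in KO pancreata, against 1.32 and 0.677 in WT pancreata (log2 fold change -1.50, SE 0.35, limma adjusted p = 0.0452). KO and WT did not overlap on either. Neither passed without WT_622A (adjusted p = 0.239 and 0.307), KO_541J, KO_541L, KO_591C or KO_615B (0.0516 to 0.111), nor did the second without KO_540C (0.0612), WT_522B or WT_522C (0.0754 each). On 1437333_x_at they were 0.492, 0.456, 0.508 and 0.515 in KO pancreata, against 1.34 and 0.659 in WT pancreata (log2 fold change -0.93, adjusted p = 0.0503). This was -0.42 without WT_622A, and it passed at -1.45 without WT_628G (0.00382), with array weights (0.0248) and without KO_591D (0.0439). On 1415836_at they were 0.341, 0.441, 0.540 and 0.448 in KO pancreata, against 1.46 and 0.540 in WT pancreata (log2 fold change -1.02, adjusted p = 0.103), the WT pair being farther apart there than the KO pancreata. This was -0.30 without WT_622A and passed at -1.74 without WT_628G (0.00468). Oat, which links ornithine and glutamate, was at 1.25, 1.28, 1.20 and 1.23 in E14.5 KO pancreata, against 1.06 and 0.938 in WT pancreata, a difference of 0.31 on the log2 scale with an adjusted p of 0.607.

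The branched-chain aminotransferases differed little. Bcat2, the mitochondrial form, was at 0.718, 0.776, 0.867 and 0.790 in E16.5 KO pancreata, against 1.01 and 0.985 in WT pancreata (log2 fold change -0.35, SE 0.09, adjusted p = 0.0722). The 3 probe sets of Bcat1, the cytosolic form, disagreed at E14.5, where the first, 1430111_a_at, was at 1.10, 1.16, 1.15 and 1.20 in KO pancreata, against 0.985 and 1.02 in WT pancreata. The second, 1450871_a_at, was at 1.09, 1.11, 1.33 and 1.24 in KO pancreata, against 0.897 and 1.10 in WT pancreata, and the third, 1455699_at, at 0.882, 1.13, 0.969 and 0.849 in KO pancreata, against 0.998 and 1.0 in WT pancreata. None passed.

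Among the transporters 2 of 19 probe sets fell at E16.5 (all probe sets 1.82%), and these encode partners. Slc7a5 is the light chain and Slc3a2 the heavy chain of the L-type carrier of leucine and other large neutral amino acids, and Slc3a2 also serves as heavy chain for other light chains such as Slc7a11. Slc7a5 was at 0.346, 0.341, 0.482 and 0.442 in E16.5 KO pancreata, against 1.10 and 0.905 in WT pancreata (log2 fold change -1.32, SE 0.17, limma adjusted p = 0.00335). Slc3a2 was at 0.499, 0.499, 0.609 and 0.503 in E16.5 KO pancreata, against 1.01 and 0.986 in WT pancreata (log2 fold change -0.93, SE 0.18, limma adjusted p = 0.0224). Neither overlapped WT at E16.5, and Slc3a2 did not pass without KO_541J, KO_541L, WT_622A or WT_628G (adjusted p = 0.0581 to 0.113). At E14.5 Slc7a5 was at 0.722, 0.751, 0.990 and 0.769 in KO pancreata, against 1.03 and 0.966 in WT pancreata, and Slc3a2 at 0.785, 0.552, 0.927 and 0.845 in KO pancreata, against 0.930 and 1.07 in WT pancreata (adjusted p = 0.780 and 0.726). KO_615A was again the KO pancreas nearest to WT at that day.

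The other 8 transporter genes had log2 fold changes between -0.65 and 0.20 at E16.5, and none passed. The lowest was the cationic amino acid transporter Slc7a1 on probe set 1454991_at, at 0.519, 0.482, 0.772 and 0.849 in E16.5 KO pancreata, against 0.981 and 1.02 in WT pancreata. Slc1a5, a glutamine and neutral amino acid exchanger, was at 0.646, 0.626, 0.765 and 0.770 in KO pancreata, against 0.983 and 1.02 in WT pancreata on 1416629_at (adjusted p = 0.110), and at 0.900, 1.07, 1.0 and 1.03 in KO pancreata, against 1.01 and 0.994 in WT pancreata on 1440379_at. Slc38a5, a glutamine transporter, had KO pancreata on both sides of WT at E16.5, at 0.741, 1.70, 1.30 and 0.591, against 0.714 and 1.29 in WT pancreata. Slc7a11, the cystine carrier, had log2 fold changes of 0.05 and -0.13 at E16.5.

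**Figure D4:**
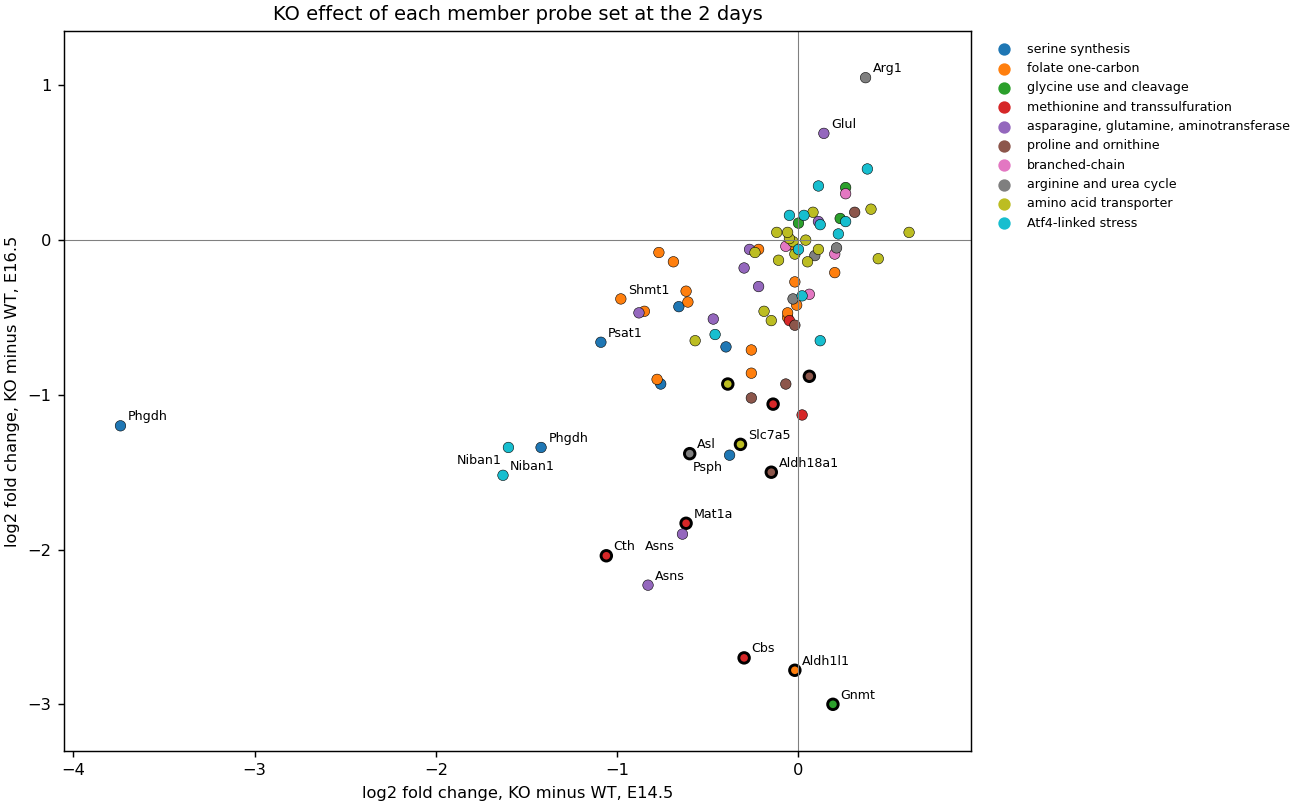
Log2 fold change of KO against WT at E14.5 (horizontal) and E16.5 (vertical) for the 90 probe sets, coloured by role, with a thick outline on the 11 that passed at E16.5. Gnmt and Aldh1l1 lie below -2.7 at E16.5 with E14.5 values near 0, whereas 1 Phgdh probe set lies at -3.74 on the E14.5 axis and -1.20 on the E16.5 axis.

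The Atf4-linked genes did not move as a set. Of their 13 probe sets 6 were lower and 7 higher at E16.5, none passed, and the gene median was 0.04. Atf4 itself differed by probe set. On 1448135_at it was at 0.600, 0.542, 0.614 and 0.770 in E16.5 KO pancreata, against 1.17 and 0.826 in WT pancreata (log2 fold change -0.65, SE 0.18, adjusted p = 0.0877). It was at -0.40 without WT_622A, and passed with array weights (0.0244) and without KO_591D (0.0320). On 1439258_at it was at 1.28, 1.18, 1.11 and 1.51 in KO pancreata, against 1.14 and 0.856 in WT pancreata, and on 1438992_x_at at 0.653, 0.490, 0.640 and 0.684 in KO pancreata, against 0.645 and 1.36 in WT pancreata. Only the first separated KO from WT. Ddit3 (Chop), a death-promoting factor of the unfolded protein response, Trib3, a pseudokinase induced with it, and Atf5, a related factor, had log2 fold changes between -0.06 and 0.16 at E16.5. Chac1, which degrades glutathione, was at -0.36 (adjusted p = 0.183), and Sesn2, a sestrin that restrains growth signalling when amino acids are short, at 0.46 and 0.12.

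Niban1, a stress-responsive gene whose product has been linked to control of translation, was the exception in size. On 1454942_at it was at 0.310, 0.261, 0.665 and 0.224 in E14.5 KO pancreata, against 1.01 and 0.994 in WT pancreata (log2 fold change -1.60, SE 0.44, adjusted p = 0.522). On 1422567_at it was at 0.314, 0.260, 0.601 and 0.219 in KO pancreata, against 0.931 and 1.07 in WT pancreata (log2 fold change -1.63, SE 0.48, adjusted p = 0.556). Both probe sets kept all 4 KO pancreata below both WT pancreata, with KO_615A the highest of the 4. At E16.5 the log2 fold change was -1.34 on 1454942_at (adjusted p = 0.142) and -1.52 on 1422567_at (adjusted p = 0.127). Without KO_591D the former passed (log2 fold change -1.60, limma adjusted p = 0.0466).

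The promoters of the members were read for TGATGNAA, the core of the C/EBP-ATF response element that Atf4 binds with C/EBP partners, on both strands, in RefSeq windows of assembly GRCm38.p6 from 250 bases before to 50 after a gene's start. Of 41 members with such a window 7 (17.1%) held the motif, and 4.51% of all genes with a window did. The list was made to include genes linked to Atf4, so the higher share may come from that choice and tests nothing. They were Asns, Chac1, Got1, Slc1a4, Slc7a11, Trib3 and Pycr1. None of the 6 called members with a window held it, too few to compare with these shares, and the other 4 called genes had no window. The stretches of the 6 measured genes are shown, because they are the measured members that carry these letters, with the motif in capitals, 5′ to 3′ on the gene's strand. For Asns this is chr6:7693210-7693258 on the minus strand, for Slc7a11, which holds 2 matches, chr3:50443646-50443705 on the minus strand, and for Chac1 chr2:119351023-119351082 on the plus strand. For Trib3 it is chr2:152344028-152344057, for Got1 chr19:43524674-43524733 and for Slc1a4 chr11:20332699-20332728, all on the minus strand.
Asns: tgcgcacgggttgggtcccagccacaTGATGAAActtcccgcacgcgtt
Slc7a11: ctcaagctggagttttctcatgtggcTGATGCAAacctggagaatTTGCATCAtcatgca
Chac1: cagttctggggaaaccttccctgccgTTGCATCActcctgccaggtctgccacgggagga
Trib3: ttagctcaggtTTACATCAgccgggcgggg
Got1: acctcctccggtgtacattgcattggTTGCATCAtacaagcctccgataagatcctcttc
Slc1a4: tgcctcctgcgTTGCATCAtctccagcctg

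The carriers of the motif did not share a direction. At E16.5 Asns was at -1.90 and -2.23, Chac1 at -0.36, and Got1, Slc1a4, Slc7a11 and Trib3 between -0.13 and 0.16 on the log2 scale, none passing. A match is a description of these letters and says nothing about binding.

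The pancreata of a group were not alike, and the same individuals stood out across members. At E14.5 KO_615A was the highest of the 4 KO pancreata on 49 of the 90 member probe sets (54.4%), and on 19.4% of all probe sets. Of the 14 member probe sets lower at E14.5 at an unadjusted p under 0.05, KO_615A was the highest KO pancreas on 12 and at or above the lower WT value on 4. The median log2 ratio over the 47 genes was -0.16, -0.10, 0.02 and -0.18 in E14.5 KO pancreata, against -0.02 and 0.02 in WT pancreata. The median over 21 acinar marker genes was -0.00, 0.03, 0.42 and -0.61 in the same KO pancreata, against -0.04 and 0.04 in WT pancreata, so KO_615A was the highest of the 4 on both.

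At E16.5 KO_541L was the lowest KO pancreas on 53 of the 90 (58.9%, all probe sets 29.3%) and on 10 of the 11 called. KO_591D was the highest on 51 (56.7%, all probe sets 44.3%). The members' median was -0.39, -0.37, -0.25 and -0.24 in E16.5 KO pancreata, against 0.03 and -0.03 in WT pancreata. The acinar marker median was -3.13, -3.47, -1.95 and -1.41 in these KO pancreata, against -0.19 and 0.17 in WT pancreata. On both, KO_541J and KO_541L were lower than KO_591C and KO_591D. This split follows the number in the array names, whose meaning is not given. No KO and WT arrays share a number, so a difference tied to it cannot be told apart from one of genotype. Between the WT pancreata, WT_622A was above WT_628G on 10 of the 11 called probe sets, a count that was not made over all probe sets. The acinar marker median was -0.19 in WT_622A and 0.17 in WT_628G, and any link to the called probe sets was not tested.

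**Figure D5:**
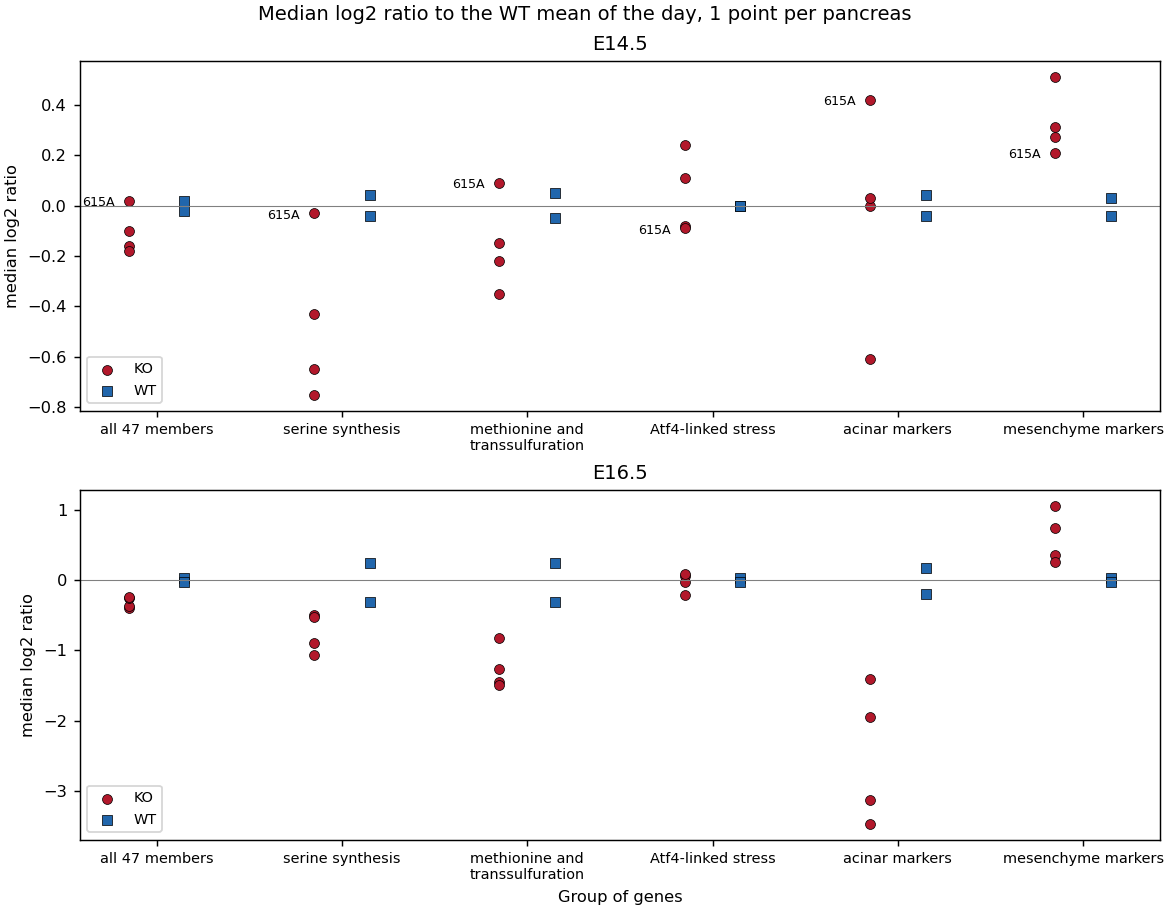
Median log2 ratio to the WT mean of the day over 6 groups of genes, 1 point per pancreas (circles KO, squares WT), with E14.5 above and E16.5 below on separate scales and KO_615A marked at E14.5. The acinar marker medians of the E16.5 KO pancreata run from -3.47 to -1.41, below the members' medians of -0.39 to -0.24.

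Markers of several cell types moved at E16.5 together with the members. Of 37 acinar marker probe sets 36 were lower and 18 passed, and of 16 duct probe sets 13 were lower and 2 passed, with gene medians of -2.43 and -0.55. Over all probe sets 43.9% were lower and 1.82% were called lower. Of 24 mesenchyme probe sets 20 were higher and 4 passed, with a gene median of 0.61. Of 14 neuronal probe sets 13 were higher and 1 passed (median 1.01), of 15 leukocyte probe sets 11 were higher and 1 passed (0.31), and of 15 erythroid probe sets 8 were higher and 2 passed (-0.00), where 0.802% of all probe sets rose. Endocrine probe sets were higher on 21 of 24 with a median of 0.44 at E16.5 (0.51 at E14.5), 6 of them at an unadjusted p under 0.05, and none passed. Liver probe sets were higher on 16 of 26 with a median of 0.11 and none passed, liver being a tissue with high levels of Gnmt, Mat1a, Cbs and Bhmt. The part of these markers in the members' results was not tested.

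The calls at E16.5 depended on the variance estimate and on single pancreata. The count of 11 was 2 with a trended, robust variance, 3 with E16.5 fitted on its own arrays, 2 after quantile normalization and 0 by the methods' t-test, adjusted here over all probe sets without the fold filter that preceded it in the study. It was 4 without WT_622A, 5 without KO_541J, 6 without KO_541L and 17 without KO_591D. Aldh1l1 passed in all of these but the t-test (adjusted p = 0.250), Slc7a5 did not pass under the trended variance, quantile normalization or the t-test, and Gnmt did not pass with the day on its own (0.0700), after quantile normalization (0.0629) or by the t-test (0.314). The calls of Mat1a and of Aldh18a1 on 1437325_x_at were each lost under 13 of the settings.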

How the data were processed

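Pancreata were profiled on Affymetrix MOE430 2.0 arrays, 1 embryo each, after 2 rounds of RNA amplification. Per the labels and the study's methods, the authors ran RMA in GeneSpring and deposited linear ratios of each probe set's signal to the mean of the WT arrays of the same day. The WT values of a day sum to 2 on every probe set within 3e-07. Values run from 0.01 to 26.4 and members' from 0.0214 to 3.36. Raw intensities were not used here, so signal over background is unknown, and the number of arrays limits the precision.

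Of 45101 probe sets 64 Affymetrix controls were left out. Probe sets were named through the platform annotation: 34945 carried 1 symbol, 932 several (tested, not named) and 9160 none. The log2 ratios of all 12 arrays were fitted as 4 groups with lmFit and eBayes in limma 3.58.1 (R 4.3.3; 8 residual degrees of freedom, prior 3.665), and KO minus WT at each day and the difference of both effects were adjusted by Benjamini-Hochberg over 45037 probe sets. The members and lists were chosen with earlier results of these data known. Values in every pancreas of a day are given for members that passed at that day and for the 8 with the next smallest p there. The same is given for probe sets of a gene that disagreed at a day. Others were added after their values were seen (Asns, Arg1, Mthfd1, Slc7a1, Slc38a5). Values at the other day are given for only some of these. The log2 fold changes of Ahcy, Cbs and Aldh18a1 at E14.5, not given above, lay between -0.30 and 0.06. For counts per gene 1 probe set was taken by name: _at, then _a_at, _s_at and _x_at, the lowest number first. On data simulated with this design, log2 changes of 1 and 2 were recovered in 74 and 91 of 100 at E14.5 and in 69 and 91 of 100 at E16.5, with 10 and 4 unchanged probe sets called. The changed probe sets were drawn at random from all, with independent normal noise and the same spread at both days. Recovery for members with a wide spread or with 1 KO pancreas apart from the others was therefore not measured. Labels do not say whether embryos shared litters, so p values measure the spread between these embryos. Promoters came from RefSeq (GRCm38.p6). Alternatives were a trended robust variance, single-day fits, quantile normalization, median centring, array weights, the number in an array's name as a random block (statmod 1.5.0), log2 of the ratio plus 0.05, dropping _x_at and _s_at, the methods' t-test (adjusted over all probe sets, whereas the study first filtered by fold) and leaving out each array. Figures were drawn with matplotlib 3.10.9.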

Additional observations from a re-analysis of the deposited data

Results flagged for a closer look

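In 7 of 90 groups of 4 KO pancreata, from the 45 named probe sets at both days, 1 pancreas stood apart from the other 3 by Dixon's gap ratio, where chance flags about 1 in 20 groups, or 4.5 here. KO_615A stood apart at E14.5 on Shmt1 1425177_at (1.04, the others at 0.443 to 0.463), on Bhmt (1.06, the others at 0.931 to 0.936) and on Gpt2 1434542_at (0.986, the others at 0.799 to 0.827), each time as the highest. KO_540G stood apart at E14.5 as the highest on Sardh 1448426_at (1.53) and Slc1a5 1440379_at (1.10) and as the lowest on Asl (0.442, the others at 0.735 to 0.785). KO_591C was apart at E16.5 on Slc3a2 (0.609, the others at 0.499 to 0.503).

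The KO effect differed between the days for Aldh1l1 on probe set 1424400_a_at, by -2.76 on the log2 scale (E16.5 minus E14.5), and for Gnmt, by -3.20, each by limma's test of the difference itself.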

How the results depend on the processing

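No member fold change among 29 named results changed sign in 599 repeats under other settings. Many of the repeats could not alter a fold change. Among them were those that altered the variance alone or, for the effect at a single day, left out an array of the other day. Of the 599 repeats, 491 kept their side of the limit, 90 lost a call and 18 gained one. The 491 include repeats of results that had not passed at first and stayed above the limit. All 90 losses fell on results that had passed, so the share lost among these is larger than the pooled count shows. The most losses were 13 of 21 for Mat1a at E16.5, 13 of 20 for Aldh18a1 on 1437325_x_at and 12 of 19 for the Gnmt difference. At E16.5 the 11 probe sets lower in KO became 2 with a trended robust variance, 3 with the day fitted alone, 2 after quantile normalization and 0 by the methods' t-test (over all probe sets, without the study's prior fold filter), and 4 (without WT_622A) to 17 (without KO_591D) when 1 pancreas was left out. The 0 higher became 1 with array weights (Glul) and 0 to 2 with 1 pancreas left out, Glul and Arg1 without KO_591D. For the difference between the days, the 2 lower became 0 with the trended variance, 0 after quantile normalization and 1 with median centring, and 0 to 3 with 1 pancreas left out. At E14.5 the count lower was 0 to 1 with 1 pancreas left out. The members' median of -0.33 at E16.5 was -0.46 with each gene's probe set of smallest p, -0.23 after quantile normalization, and -0.37 to -0.17 with 1 pancreas left out, -0.17 being without KO_541J. The causes were not tested. No paired analysis was possible because no KO and WT arrays share a number in their names; with that number as a random block the correlation was -0.0876. Each WT group holds 2 pancreata.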

Other observations

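In lists of neighbouring pathways outside the 50 genes, calls at E16.5 were few, where 1.82% of all probe sets were called lower. The 5 genes are given as values and not as a result about the lists. Gatm and Gamt, which make creatine in turn, Gamt by a methyl transfer from S-adenosylmethionine, were at 0.318 ± 0.127 and 0.240 ± 0.0975 in KO pancreata (SD, n = 4; log2 fold changes -1.72 and -2.13, limma adjusted p = 0.0131 and 0.0154). The glutamine transporter Slc38a3 was at 0.281 ± 0.0834 on 1 of 2 probe sets (adjusted p = 0.0444). Eif2ak3 (Perk), the kinase that signals endoplasmic reticulum stress to Atf4, was at 0.327 ± 0.0932 on 1 of 3 probe sets (adjusted p = 0.00831), and Eif2ak2, a related kinase that senses double-stranded RNA, at 0.590 ± 0.0299 on 1 of 3 (adjusted p = 0.00390).

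At E16.5, where 43.9% of all probe sets were lower, 1 of 51 probe sets of further one-carbon and methionine genes was called (28 lower), 1 of 32 of other amino acid enzymes (20 lower), 1 of 56 of other amino acid transporters (27 lower), 2 of 45 of integrated stress genes (28 lower) and 0 of 20 of cysteine and glutathione genes (9 lower, 5 of them at an unadjusted p under 0.05). At that unadjusted limit 8.16% of all probe sets were lower at E16.5. At E14.5 none was called in these lists, and 42 of the 51 further one-carbon probe sets were lower (all probe sets 44.6%). The gene median of that list was -0.20 on the log2 scale, beside 0.01 over all genes.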
